A study of Rattus norvegicus with 2 samples.

Results

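Cluster 0 is the largest group of cells in a pair of single-cell RNA libraries from the neonatal rat heart, and the authors' cell table gives it the name Fibroblast. Its members were taken as every cell of either library that carries cluster number 0 in that table, which gave 13630 of 24220 cells. The saline library contributed 6600 of its 11531 cells (57.2%) and the LPS library 7030 of its 12689 cells (55.4%). Hearts of Sprague-Dawley rats aged 1 to 3 days were digested with trypsin. The band of low density, which most cardiomyocytes do not enter, was taken from a Percoll gradient, plated and cultured. The paper states for its neonates in general that both sexes were used. A UMI of a Y-linked gene was seen in only 7 saline and 6 LPS cells of cluster 0, so the mix of sexes was not read from the counts. One library came from cells given saline and the other from cells given 1 µg/ml lipopolysaccharide (LPS, the outer-membrane glycolipid of Gram-negative bacteria) for 2 h. Neither group carried a genetic change, and the labels do not tell the animals of a library apart. The gradient was meant to enrich intrinsic cardiac adrenergic (ICA) cells, the name the labels give to both samples, and the Percoll step and the culture decide which fibroblasts were seen.

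Cardiac fibroblasts make and turn over the collagen-rich matrix between the muscle cells. They also respond to bacterial products: LPS is sensed by Tlr4 with its partner Cd14, the adaptor Myd88 passes the signal on through Irak kinases and Traf6, and the NF-kappaB factors are freed from their inhibitors and enter the nucleus. NF-kappaB turns on genes of chemokines (small proteins that draw leukocytes), cytokines and adhesion molecules, and it also turns on its own inhibitors, which closes a feedback loop.

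Values are counts of unique molecular identifiers (UMIs), each of which stands for 1 captured mRNA molecule read near its 3′ end, so that a level does not need to be divided by gene length. A gene's level is its UMI sum in a cluster of 1 library, per 1000000 UMIs of that cluster and library (CPM). Cluster 0 held 90500722 UMIs in saline and 73758241 in LPS, with medians of 12968 and 9821.5 UMIs and of 2823 and 2373 genes per cell. A median of 3.37% of the UMIs of a saline cell and 2.94% of those of an LPS cell came from mitochondrial genes. There was 1 library per condition, so the difference between LPS and saline has no replicate check, no test was made, and treatment and library cannot be told apart. Intervals at 95% (exact Poisson for levels, exact conditional for ratios, Clopper-Pearson for shares of cells) cover counting error only. A gene is called higher or lower here when its ratio of LPS to saline is at least 2-fold and it has at least 50 UMIs over both libraries in cluster 0. The libraries have 194 cell barcodes in common, and 67 of these lie in cluster 0 of both. Without the 108 LPS and 115 saline cells of cluster 0 with such a barcode, 423 genes were higher and 1102 lower, against 421 and 1115 with them.

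Some of the promoters of the genes described below hold the letters that NF-kappaB proteins prefer, and they are shown because several of these genes are textbook NF-kappaB targets. Of the 15 genes with the highest ratios of LPS to saline 9 had a promoter in the table, and 2 of these, Gbp5 and Cxcl10, held the letters, as did 1 of 10 among the 15 with the lowest ratios (Pik3ip1); the other stretches printed belong to further higher genes. The promoter sequences are those of RefSeq on GRCr8, from 250 bases before to 50 after each gene's start, on the gene's own strand. Both strands were searched for GGGA and TTCC with any 2 bases between them, which reads GGAA, any 2 bases and TCCC on the other strand. Each line is a stretch of at most 30 bases with the matching letters in capitals, and overlapping matches are shown as 1 stretch.
Cxcl10, far match: gcaggaaagaGGGAAATTCCaagctcatgg
Cxcl10, near match: tttaacatcaGGGAACTTCCCtcgaaggtt
Gbp5: ttccactgttGGAAATTCCCcttaacggga
Cxcl1: cctgtgctccGGGAATTTCCCtggcctgga
Cxcl6: tccaaggcccGGGAATTTCCCcagcatctt
Ccl7: tcattccaaaGGAAGATCCCgccctaactg
Nfkbia: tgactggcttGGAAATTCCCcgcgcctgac
Nfkb2: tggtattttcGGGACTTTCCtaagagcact

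In Cxcl10 the letters lay 187 and 128 bases before the start, at chr14:15988879-15988888 and chr14:15988938-15988948 on the plus strand. Those of Gbp5 lay 94 bases before it, at chr2:233910905-233910914 (plus strand), and a second stretch lay 33 bases after it. Cxcl1 and Cxcl6, neighbours in the same chemokine cluster, carried the same 11 capitals at 84 and 88 bases before the start, at chr14:17479395-17479405 and chr14:17596495-17596505 on the minus strand. Ccl7 had its match 59 bases before the start at chr10:67514036-67514045 (plus strand), Nfkbia 31 bases before at chr6:78597094-78597103 (minus strand) and Nfkb2 20 bases before at chr1:255108354-255108363 (plus strand). All the stretches printed are upstream of the annotated start, outside the transcript. Of 27457 promoters in the table, 355 (1.29%) held a match. Of the 220 higher genes that were seen in 10% or more of the cells of either library, 169 had a promoter in the table and 17 of these (10.1%) held a match. The shares were 4 of 157 (2.55%) for the lower genes under the same minimum and 53 of 4979 (1.06%) for the other genes of that abundance. The letters of AP-1 sites, TGANTCA, were in 11.8% of the promoters of the higher genes, 3.82% of those of the lower genes, 4.28% of the others and 7.33% of all. The C/EBP letters, TTGC and AA with any 2 bases between them on either strand, were in 10.65% of the higher, 12.7% of the lower, 7.65% of the other and 10.5% of all promoters. The letters of a full CRE, TGAC followed by GTCA, were in 2.37%, 0.637%, 3.27% and 1.91%, in the same order. These shares are a description of letters and say nothing of binding.

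The name Fibroblast was checked against Dcn and Lum (small proteoglycans that bind collagen fibrils), Pdgfra (a platelet-derived growth factor receptor of mesenchymal cells), Col1a1 (a chain of type I collagen), Penk (the enkephalin precursor) and Pla2g2a (a secreted phospholipase). The clusters were made from these same cells, so the check is a description. All 6 genes had a higher level in cluster 0 than in clusters 2 to 6 in both libraries. Dcn was at 2764 CPM in saline and 3214 in LPS, against 525 and 535 CPM in the endothelial cells of cluster 4 and 787 and 761 in the macrophages of cluster 6. Lum was at 1115 and 1019 CPM in cluster 0, and Col1a1 at 4412 and 3713. The markers did not all set cluster 0 apart from the other fibroblasts: Col1a1 was at 4642 and 3828 CPM in cluster 1, and cluster 7 reached 3023 and 3440 CPM of Dcn. Dcn, Lum, Pdgfra, Penk and Pla2g2a were higher in cluster 0 than in cluster 1 in both libraries. Pla2g2a was at 1475 and 4070 CPM in cluster 0, against 785 and 2237 in cluster 1. Cluster 9, which has no cell type in the table, had 7052 and 5285 CPM of Col1a1. Droplets also carry free RNA, and at a common depth of 3000 UMIs per cell a Dcn UMI was found in 68.0% of the saline and 61.0% of the LPS macrophages, against 98.6% and 98.7% of the cells of cluster 0. Dbh, an enzyme of noradrenaline synthesis and a marker of ICA cells, was at 0.552 and 0.271 CPM in cluster 0.

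Markers of other cell types were low and mostly lower in LPS. The 12 macrophage markers summed to 41.2 CPM in saline and 23.6 CPM in LPS, against 7916 and 6136 CPM in cluster 6; 7 of them were called lower and 0 higher, the most abundant were Tyrobp in saline and Fcer1g in LPS, and none was at 0. The 9 endothelial markers summed to 112 and 77.0 CPM, led by Egfl7, with 1 of 9 lower. The cardiomyocyte markers, led by Tnnt2, summed to 286 and 237 CPM with 0 of 8 tested genes past 2-fold, and the erythroid markers, led by Hbb, to 13.1 and 3.78 CPM. Mural, mesothelial and glial markers were called lower in 1 of 12, 0 of 3 and 0 of 2 tested genes and higher in 0. Over all tested genes 9.1% were lower and 3.44% higher, a share that 1 of 12 and 1 of 9 lie close to. Whether these shifts have a part in the lower values described below was not tested.

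Of 25399 genes in the files, 12247 had 50 or more UMIs in cluster 0, and 421 of these (3.44%) were higher and 1115 (9.1%) lower in LPS. Most of the lower genes were rare: among the 6809 genes seen in 10% or more of the cells of either library, 220 (3.23%) were higher and 220 (3.23%) lower. The median log2 ratio of all tested genes was -0.13, and a scaling that sets this median to 0 moves each log2 ratio up by 0.13, so ratios are best read against it. The 421 higher genes took 0.700% of the UMIs of saline cells and 3.36% of those of LPS cells. The 1115 lower genes took 1.11% and 0.412%. LPS cells held fewer UMIs than saline cells, and with every cell brought to 3000 UMIs 355 genes were higher and 636 lower of the 10140 that still had enough UMIs. The most abundant transcripts were shared: AC134224.3, a locus with no gene name, led with 4.26% and 4.29% of the UMIs, followed by Rpl41, a ribosomal protein gene, with 1.62% and 1.67%.

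**Figure D1:**
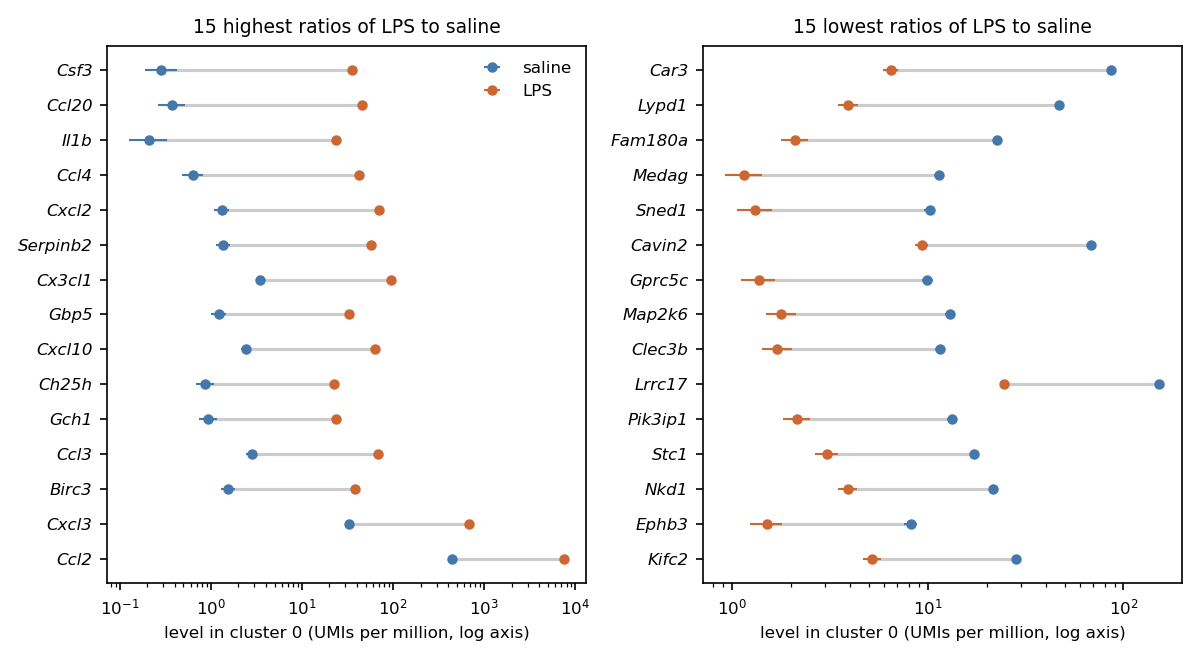
Levels of the 15 genes with the highest and the 15 with the lowest ratio of LPS to saline in cluster 0, in CPM on log axes that differ between the panels; points are the single library of each condition and bars are 95% Poisson intervals. Ccl2 reaches 7567 CPM in LPS, whereas most of the other genes lie under 100 CPM in both libraries.

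Several chemokines were both abundant in LPS and far higher than in saline. Ccl2 (ENSRNOG00000007159), which attracts monocytes, was at 448 CPM in saline and 7567 CPM in LPS, a ratio of 16.9 (16.7 to 17.0). At 3000 UMIs per cell it was found in 57.7% of the saline cells and in 100% of the LPS cells. Cluster 0 held 57.9% of the Ccl2 UMIs of the LPS library, close to its 57.8% share of all UMIs, and the gene was at 6854 CPM in the endothelial cells of cluster 4 and 14739 CPM in macrophages. High Ccl2 was thus measured in other cell types too, and the part of free RNA in it was not tested. Ccl7, a monocyte chemokine encoded beside Ccl2, went from 124 to 1799 CPM (ratio 14.5, 14.2 to 14.7). The neutrophil chemokines Cxcl1 and Cxcl6 went from 164 to 2238 CPM (13.7, 13.4 to 13.9) and from 134 to 1757 CPM (13.1, 12.9 to 13.4). After thinning, 97.8% of the LPS cells had a UMI of Cxcl1 and 87.0% one of Cxcl6, against 29.9% and 24.0% of the saline cells. UMIs of these abundant chemokines were thus found in most LPS cells of the cluster. They were measured in other cell types too. LPS macrophages held 12789 CPM of Cxcl1, 10780 of Ccl7 and 563 of Cxcl6, and LPS cells of cluster 4 held 1207, 1238 and 432 CPM. The part of free RNA in the shares of cells was not tested.

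Cxcl3, another neutrophil chemokine, went from 32.9 to 683 CPM (20.8-fold) and was found in 67.4% of the thinned LPS cells. Cxcl16, which also exists bound to the membrane, went from 136 to 258 CPM (1.89-fold). Cx3cl1, Cxcl10 and Ccl20 stayed under 100 CPM in LPS and were seen in a minority of the thinned cells. Cx3cl1, a membrane-bound chemokine, went from 3.48 to 95.3 CPM (ratio 27.4, 24.4 to 30.7) and from 1.05% to 24.3% of the thinned cells. With all UMIs kept, Cx3cl1 was seen in 4.39% of the saline and 55.0% of the LPS cells. Cxcl10, which attracts T cells and is known as an interferon-induced gene, went from 2.44 to 63.6 CPM (26.1, 22.8 to 29.9). Ccl20, the ligand of Ccr6, had 34 UMIs in saline and 3372 in LPS, at 0.376 and 45.7 CPM (ratio 122, 86.9 to 176). Of the 12 tested CXC and CX3C chemokines 7 were higher and 0 lower (3.44% and 9.1% of all tested genes), and their summed level went from 538 to 5278 CPM. Of the 13 tested CC chemokines 8 were higher and 1, Ccl24, lower, and the sum went from 597 to 9562 CPM. Of these 8, Ccl3, Ccl4 and Ccl12 stood at 0.320%, 0.357% and 0.428% of their level in macrophages, inside the range of the macrophage markers given below. The median log2 ratio was 3.10 for the CXC and CX3C chemokines and 3.42 for the CC chemokines, against -0.13 over all tested genes. Cxcl12, the constitutive stem-cell chemokine, went from 50.1 to 94.5 CPM (1.89-fold), and Cxcl13 and Ccl11 had ratios of 0.907 and 0.759.

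Some genes of high ratio stood in cluster 0 no higher, as a share of their level in macrophages, than genes that fibroblasts do not express. The 12 macrophage markers stood in LPS cells of cluster 0 at 0.204% to 1.01% of their level in macrophages. Il1b (interleukin-1 beta) stood at 0.297%, Ccl3 at 0.320% and Ccl4 at 0.357%, all inside that range. Their CPM hardly differed between the other cell types: Ccl3 was at 68.7 CPM in cluster 0, 77.5 in cluster 1, 69.2 in cluster 2 and 68.2 in the endothelial cells of cluster 4, against 21442 in macrophages. Il1b was at 23.5, 25.7, 26.0 and 20.03 CPM in the same 4 clusters, against 7919 in macrophages. The ratios of LPS to saline in cluster 0 were 112 (71.4 to 186) for Il1b, 24.6 (21.6 to 28.0) for Ccl3 and 65.1 (50.2 to 86.0) for Ccl4. They rest on levels inside the range of the macrophage markers, so no expression by fibroblasts is read from them. The part of free RNA in them was not tested. Of the 108 list members that were at least 2-fold higher, 5 lay at or under the highest marker: these 3 genes, Ccl12 (0.428%) and the macrophage elastase Mmp12 (0.385%). Mmp13 (1.19%), Il1a (1.45%) and Tnf (1.53%) lay just above it, and against their 0.719 to 2.22 CPM in cluster 0, cluster 4 held 0.514 to 1.44 CPM. The highest marker is Csf1r, which rests on 24 UMIs in cluster 0, with an interval of 0.613% to 1.61%. The shares of Mmp13, Il1a and Tnf lie inside that interval, so they are not set apart from the markers. Endothelial markers stood in LPS cells of cluster 0 at 1.33% to 9.39% of their level in cluster 4, and 5 of the 108 higher list members lay at or under the highest of them: Madcam1, Sele, Gbp4, Rsad2 and Meox1 (7.08%). Their part as free RNA was not tested.

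Cxcl2 stood just above the range of the macrophage markers, with 1.04% (1.01% to 1.07%) of the macrophage level. Csf3, the granulocyte colony-stimulating factor, stood at 1.58% (1.51% to 1.66%). Both shares lie inside the interval of the highest marker, Csf1r (0.613% to 1.61%), so they are not set apart from the markers. Among the genes seen in 10% or more of the cells of a library Csf3 had the highest ratio, 122 (83.3 to 188), from 26 UMIs in saline and 2591 in LPS, and how much of it is free RNA was not tested. In the cells of cluster 0 with fewer than 2 UMIs of other cell types' markers (294 saline and 1281 LPS cells), the log2 ratio of Cxcl2 was 3.39, against 5.73 in all cells, and that of Csf3 5.55, against 6.93. In the same cells Ccl4 went the other way, from 6.02 to 6.80, as did Gbp5, from 4.73 to 5.57. All saline cells of cluster 0 together held only 119 UMIs of Cxcl2, 26 of Csf3, 58 of Ccl4 and 111 of Gbp5. The sums of the 294 saline cells are at most these, and no interval was made, so nothing is read from the shifts. The filter counted all UMIs of a cell, so cells with few UMIs pass it more easily. The remaining genes stood farther above the macrophage markers. Cxcl3 was at 3.66% of the macrophage level, Gch1 at 14.4%, Ccl2 at 51.3%, Birc3 at 67.7%, Ccl20 at 80.0% and Cxcl10 at 89.3%. The endothelial cells of cluster 4 held more of several: 137 CPM of Gbp5, 98.9 of Ccl20, 72.9 of Birc3 and 50.5 of Gch1. Serpinb2 and Cx3cl1 were higher in cluster 0 than in macrophages, at 149% (122% to 185%) and 272% (220% to 340%). Serpinb2 is an intracellular inhibitor of plasminogen activators, and 73.7% of its UMIs in the LPS library lay in cluster 0, against 57.8% of all UMIs.

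**Figure D2:**
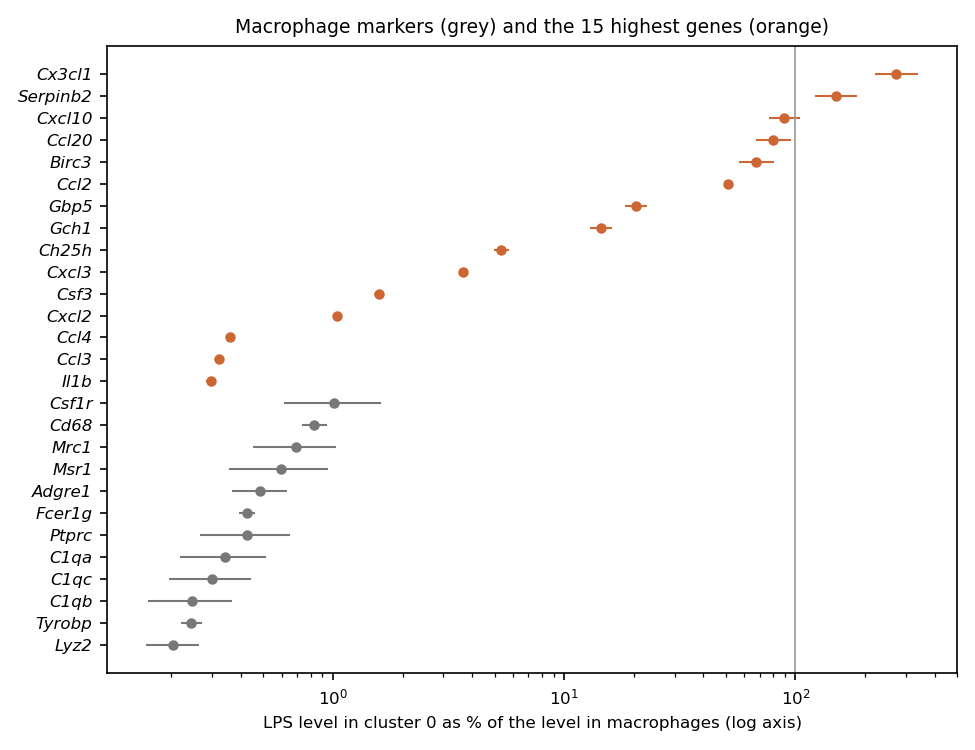
LPS level in cluster 0 as a percentage of the level in the macrophages of cluster 6, on a log axis, for 12 macrophage markers (grey) and the 15 genes with the highest ratio of LPS to saline (orange), with 95% counting intervals and a line at 100%. Il1b, Ccl3 and Ccl4 lie among the markers, and Serpinb2 and Cx3cl1 lie above 100%.

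Among 14 tested cytokines and colony-stimulating factors 7 were higher (3.44% of all tested genes) and 0 lower, and 4 of the 7 are Il1b, Il1a, Tnf and Csf3, at or near the range of the macrophage markers. The most abundant was Csf1, the growth factor of macrophages, at 33.6 CPM in saline and 110 CPM in LPS (3.29-fold, 3.15 to 3.43). Il6 went from 1.36 to 8.89 CPM (6.54-fold) and had a UMI in 2.63% of the thinned LPS cells. Its log2 ratio was 0.49, under 2-fold, in the 294 saline and 1281 LPS cells with fewer than 2 UMIs of other cell types' markers. In all cells it was 2.71. All saline cells of cluster 0 together held only 123 Il6 UMIs, so the value from the 294 rests on few UMIs and has no interval. Il1a and Tnf were at 0.719 CPM each in LPS, and Il33, an alarmin of stromal cells, was at 21.8 and 13.6 CPM.

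Of the 13 tested genes of LPS sensing and its adaptors 5 were higher and 0 lower (3.44% and 9.1% of all tested genes). Ly96 and Ticam1, also on this list, were not among the genes counted, so nothing is known of them here. The receptor Tlr4 was at 1.54 CPM in saline and 1.53 in LPS, with UMIs in 0.364% and 0.584% of thinned cells, and its interval (ratio 0.997, 0.771 to 1.29) holds no 2-fold change, although its log2 ratio was 0.68 after thinning and -0.63 in the cells with fewest markers of other types. Cd14 was at 12.2 and 9.56 CPM, Myd88 at 17.4 and 21.2, Irak1 at 24.8 and 23.3 and Irak4 at 13.2 and 12.4. These 5 genes stayed under 2-fold. The higher genes were Tlr2, the receptor of bacterial lipoproteins (6.15 to 54.2 CPM, 8.81-fold, 8.06 to 9.64), Ripk2, the kinase of Nod receptors (14.7 to 103 CPM), Irak3, a brake on Irak signalling (15.1 to 49.9 CPM), Map3k8 and Irak2.

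NF-kappaB genes were higher as a group, with 12 of 15 tested members higher, 0 lower (3.44% and 9.1% of all tested genes) and a median log2 ratio of 2.01. Nfkbia, the inhibitor whose loss frees NF-kappaB, was the most abundant and had a UMI in 79.3% of the thinned LPS and 15.5% of the thinned saline cells. Of the subunits, Nfkb2 went from 8.49 to 64.5 CPM (7.60-fold, 7.04 to 8.21), Nfkb1 from 26.8 to 110.5 CPM (4.12, 3.93 to 4.31) and Rela from 31.6 to 69.3 CPM (2.19-fold). Rel, a subunit best known from leukocytes, was at 0.685 and 1.07 CPM. Most inhibitors and feedback proteins were higher, but Tnip2 (1.80 and 1.48 CPM) and Nfkbid (0.541 and 1.02 CPM, 1.88-fold) did not reach 2-fold. Tnip1 went from 50.4 to 202 CPM, Nfkbib from 20.6 to 73.9 and Nfkbiz from 16.04 to 53.5. Tnfaip3, the A20 deubiquitinase, had a large ratio (16.3, 8.60 to 34.8) at a level of 1.80 CPM in LPS. Birc3, an apoptosis inhibitor of the same pathway, went from 1.55 to 37.9 CPM (24.5, 20.7 to 29.2).

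Transcription factors of the immediate early response were mixed. Of 22 tested, 7 were higher: Cebpb, the C/EBP factor of acute-phase genes, went from 297 to 715 CPM, Ier3 from 107 to 351, Maff from 10.5 to 87.0 and Myc from 23.2 to 54.1, with Batf, Fosl1 and Atf3 at 5.04 to 6.93 CPM in LPS. Fos was lower, at 51.7 CPM in saline and 15.1 CPM in LPS (ratio 0.292, 0.273 to 0.312), and so was Klf2. Jun and Junb had ratios of 1.90 and 1.80, and Egr1 one of 0.830. Among feedback genes of mRNA decay and kinase signalling, 3 of 16 were higher and 1 lower (3.44% and 9.1% of all tested genes). Zc3h12a, a nuclease that degrades cytokine mRNAs, went from 7.40 to 66.8 CPM (9.02, 8.32 to 9.79), whereas Zfp36 was at 16.3 and 18.4 and Dusp10 was lower at 6.46 and 1.82 CPM.

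Interferon-response genes were higher in 18 of 26 tested members and lower in 0 (3.44% and 9.1% of all tested genes), with a median log2 ratio of 1.54. The summed level moved less, from 2928 to 4061 CPM, because Ifitm3 (1680 and 2331 CPM) and Ifi27 (1121 and 1282 CPM) make up most of it. Isg15, a ubiquitin-like modifier, went from 18.3 to 122 CPM (6.68, 6.34 to 7.05), Gbp2 from 5.71 to 42.5, Irf1 from 9.49 to 37.8 and Gbp5 from 1.23 to 32.6 CPM. Gbp5, a guanylate-binding protein of cell-intrinsic defence, stood at 20.5% of the macrophage level.

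Adhesion molecules, prostaglandin genes and secreted effectors were also higher in part. Vcam1 and Icam1, the endothelial and stromal ligands of leukocyte integrins, went from 6.91 to 102 CPM (14.8, 13.6 to 16.1) and from 14.4 to 135 CPM (9.38, 8.85 to 9.95), and 6 of 10 adhesion genes were higher (3.44% of all tested genes). Of these 6, Sele and Madcam1 lay under 1 CPM in LPS, at 3.62% and 2.53% of their level in the endothelial cells of cluster 4. Itgb1, an integrin subunit, was at 176 and 166 CPM. Of 14 tested genes of prostaglandin and nitric oxide synthesis, 7 were higher and 1 lower. Ptgs2, the inducible cyclooxygenase, went from 3.76 to 60.0 CPM (15.97-fold, 14.3 to 17.9) and Ptges, which makes prostaglandin E, from 45.5 to 245 CPM, whereas the constitutive Ptgs1 was at 4.75 and 3.20. Gch1, which makes the cofactor of nitric oxide synthases, went from 0.939 to 23.8 CPM, and Nos2, the inducible synthase, from 0.144 to 7.20 CPM. Pla2g2a was among the most abundant secreted products of the cluster, at 1475 CPM in saline and 4070 CPM in LPS (2.76, 2.74 to 2.78). Ch25h, which makes an oxysterol with antiviral effect, went from 0.873 to 22.6 CPM and stood at 5.35% of the macrophage level.

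Of 18 tested acute-phase, complement and innate effector genes 11 were higher and 0 lower (3.44% and 9.1% of all tested genes). Has2, which makes hyaluronan, went from 5.19 to 35.8 CPM (6.90, 6.25 to 7.62). Tnfaip6, which binds hyaluronan, had a UMI in 50.9% of the thinned LPS and 7.18% of the thinned saline cells. Ptx3, a soluble pattern-recognition protein, went from 41.3 to 192 CPM and C3, the central complement component, from 1.23 to 7.16. Sod2, the mitochondrial superoxide dismutase and the most abundant of the list, went from 2158 to 3625 CPM, a ratio of 1.68.

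**Figure D3:**
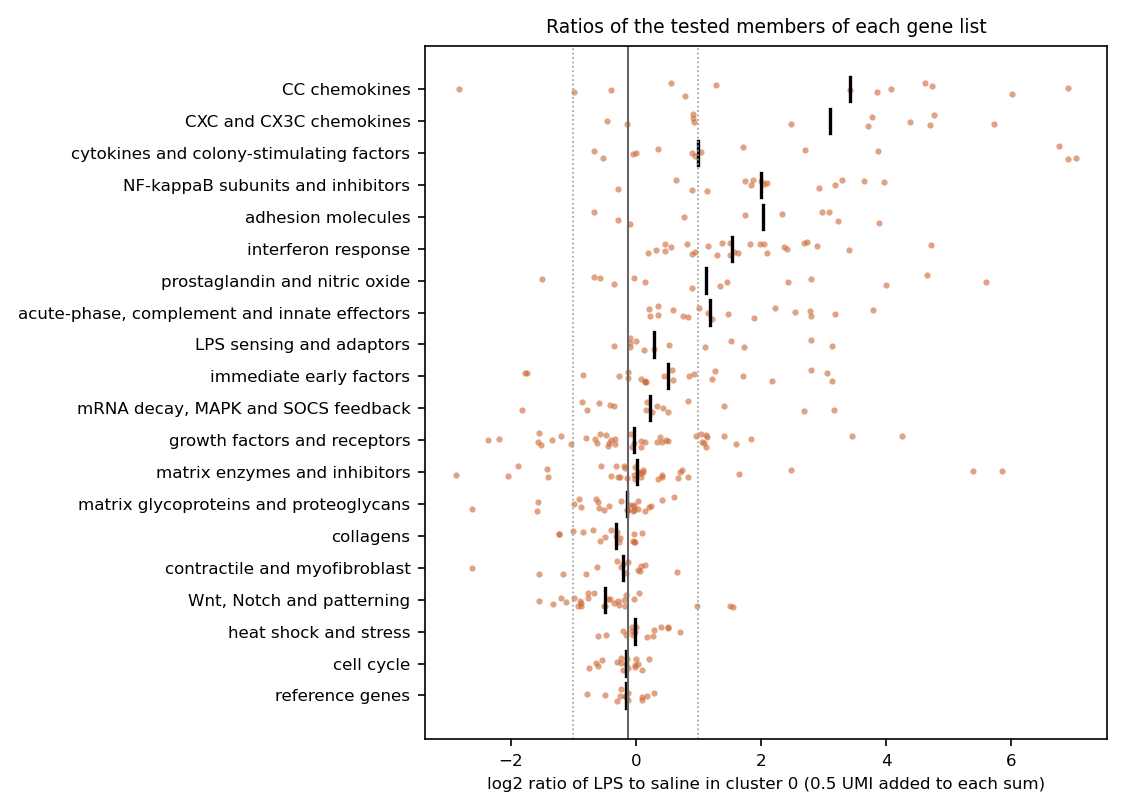
Log2 ratio of LPS to saline in cluster 0 for each tested gene (points) of 20 gene lists, with 0.5 UMI added to each sum; black bars are list medians, dotted lines mark 2-fold and the grey line the median of all tested genes (-0.13). The inflammatory lists reach to the right, and the heat-shock, cell-cycle and reference lists stay within 2-fold, as do 14 of 17 collagens.

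Genes of the fibroblast's structure had smaller ratios, and those past 2-fold were mostly lower, against 9.1% lower and 3.44% higher over all tested genes. Of 20 fibroblast identity genes 2 were higher (Pla2g2a and Pdgfra) and 4 lower (Pi16, Dpep1, Tcf21 and Col1a2), and their summed level was 16069 and 16642 CPM. Of 17 tested collagens 0 were higher and 3 lower (Col11a1, Col5a1 and Col1a2), and their summed level was 8136 CPM in saline and 6703 CPM in LPS (ratio 0.824, 0.821 to 0.827). Col3a1 was at 2087 and 1482 CPM, and Col4a1, a basement membrane chain, at 790 and 774. Of 26 matrix glycoproteins and proteoglycans 3 were lower: Ogn (18.9 and 6.43 CPM) and Aspn (38.4 and 12.8 CPM), both small leucine-rich proteoglycans, and Lrrc17, a secreted leucine-rich repeat protein. Fn1 (fibronectin) was at 833 and 858 CPM and Postn (periostin) at 965 and 932. Vcan, the large hyaluronan-binding proteoglycan, had a ratio of 1.53.

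Enzymes of the matrix went both ways, with 4 of 32 higher and 5 lower, against 3.44% and 9.1% over all tested genes. Among the higher genes were Serpinb2 (1.37 to 57.6 CPM, 42.0, 35.2 to 50.7), Mmp12 and Mmp13. The collagenase Mmp13 reached 2.22 CPM in LPS, and both Mmp genes lay at or near the range of the macrophage markers. Htra3, a serine protease, was lower (72.5 to 19.6 CPM, ratio 0.270), as were Adamts5, Adamts1, Timp3 and Timp4. Mmp2 (830 and 848 CPM), Timp1 (455 and 491 CPM) and Lox (294 and 313 CPM), the abundant members, had ratios of 1.02, 1.08 and 1.06. Of 15 contractile and myofibroblast genes 3 were lower (Lmod1, Cnn2 and Ctgf) and 0 higher, and Acta2, smooth muscle actin, was at 385 and 424 CPM.

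Growth factors and their receptors were split, with 11 of 41 higher and 8 lower (3.44% and 9.1% of all tested genes). Bmp2 went from 7.14 to 78.8 CPM (11.04-fold), Vegfa from 6.15 to 18.6 and Ereg, an EGF receptor ligand, from 0.431 to 8.31 CPM. Pdgfra was higher, at 108 and 236 CPM (2.19, 2.13 to 2.24), while Pdgfrb was at 194 and 126 CPM. The lower genes included Igf1 (241 to 82.6 CPM, ratio 0.343, 0.333 to 0.353), the IGF-binding proteins Igfbp5 (195 to 66.2 CPM) and Igfbp6, Tgfb3 (23.3 to 4.51 CPM, 0.194, 0.172 to 0.218), Tgfbr2, Fgfr1, Gdf10 and Bmp4. Igf1 had a UMI in 39.1% of the thinned saline and 17.1% of the thinned LPS cells.

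Wnt, Notch and patterning genes had a median log2 ratio of -0.49, with 2 of 27 higher (the transcription factors Meox1 and Twist2) and 4 lower. Tcf21, the transcription factor of the epicardial fibroblast lineage, was at 103 and 47.8 CPM (0.463, 0.445 to 0.481) and Wnt4 at 49.4 and 17.0. No gene of the 16 heat-shock and stress genes, the 17 cell-cycle genes or the 13 reference genes passed 2-fold in either direction, against 3.44% higher and 9.1% lower over all tested genes. Top2a, needed in mitosis, was at 8.98 and 5.78 CPM. Of the reference genes Ppia had the ratio farthest from 1 (0.583), at 502 and 293 CPM.

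Among the genes with a UMI in 10% of the cells of a library, the 15 with the lowest ratios were led by Car3 (ENSRNOG00000010079), a carbonic anhydrase known from muscle and fat. It was at 86.3 CPM in saline and 6.48 CPM in LPS, 13.3-fold lower (12.1 to 14.6). Lypd1 was at 46.9 and 3.93 CPM (11.9-fold lower, 10.6 to 13.5) and Fam180a at 22.7 and 2.10 (10.8-fold lower, 9.17 to 12.8). Medag and Sned1 followed with log2 ratios of -3.31 and -2.95, and then Cavin2, a coat protein of caveolae (67.9 and 9.33 CPM). The most abundant of the 15 was Lrrc17, at 151 CPM in saline and 24.6 CPM in LPS (6.17-fold lower, 5.87 to 6.48), with UMIs in 34.7% and 6.53% of the thinned cells. The others were Gprc5c, Map2k6, Clec3b, Pik3ip1, Stc1, Nkd1, Ephb3 and Kifc2, with log2 ratios from -2.86 to -2.43. They share no family: Map2k6 is a kinase that activates p38, Pik3ip1 an inhibitor of PI3 kinase, Nkd1 an antagonist of Wnt signalling and Stc1 a secreted glycoprotein hormone. Cluster 0 held 84.0% of the Car3 UMIs of the saline library and 83.4% of those of the LPS library, against 59.3% and 57.8% of all UMIs. The other fibroblasts held Car3 too, with 35.9 CPM in cluster 1 and 58.2 CPM in cluster 7 in saline.

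The same comparison was made in the other clusters named Fibroblast, 1 and 7, and in cluster 2, whose Rgs5, Kcnj8 and Abcc9 are genes of mural cells. All comparisons share the same pair of libraries, so the values are given side by side only. In cluster 1, 3.23% of the tested genes were higher and 5.09% lower, in cluster 2 2.86% and 4.28%, and in cluster 7 4.7% and 3.45%. The 30 named genes, the 15 highest and 15 lowest above, were chosen for their ratios in cluster 0, which favours a larger change there than in another cluster, so nothing is read from the direction of these differences. For 9 of the 30 named genes the log2 ratio differed from that in cluster 1 by more than counting error. Lypd1 had log2 ratios of -3.57 in cluster 0 and -2.78 in cluster 1 (difference -0.80, -1.16 to -0.44), and Lrrc17 of -2.62 and -2.04. Against cluster 2, 12 of 30 differed. Ch25h had a log2 ratio of 4.68 in cluster 0 and 2.05 in cluster 2 (difference 2.64, 1.83 to 3.45) and Ccl2 of 4.08 and 2.92 (1.15, 1.12 to 1.18), whereas Cxcl3 was at 4.38 and 5.71 (-1.34, -1.52 to -1.15). Stc1 was at -2.50 in cluster 0 and -0.62 in cluster 2. Against cluster 7, with 104 saline and 144 LPS cells, 5 of 30 differed. Cxcl10 was one of them (4.70 and 3.86), but its level in cluster 7 was the higher one in both libraries, 127 and 1858 CPM against 2.44 and 63.6 in cluster 0. With 1 library per condition, none of these differences between clusters was tested.

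**Figure D4:**
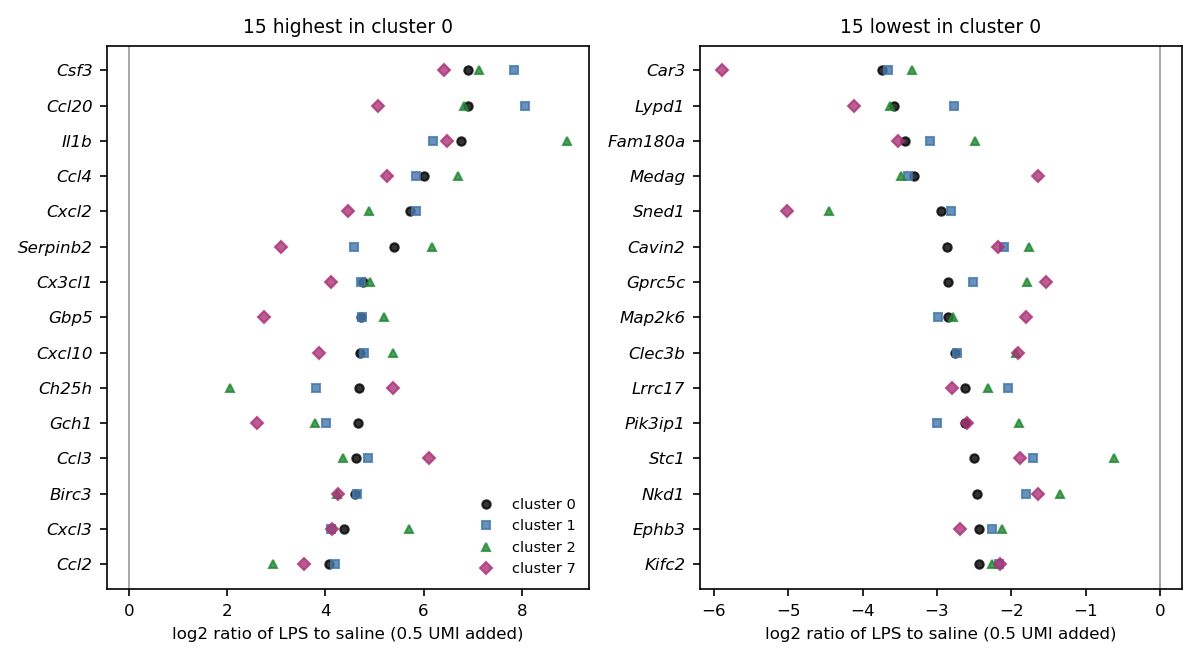
Log2 ratios of LPS to saline (0.5 UMI added to each sum) for the 30 named genes in cluster 0 (black circles), cluster 1 (blue squares), cluster 2 (green triangles) and cluster 7 (purple diamonds). All points of the left panel lie above 0 and all points of the right panel under it, and the points for cluster 7 rest on the fewest cells.

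Cluster 0 was also set against the same clusters within each library. In saline, 16 of 11902 tested genes (0.134%) were at least 4-fold higher in cluster 0 than in cluster 1 and 198 (1.66%) at least 4-fold lower. Genes of dividing cells had the lowest ratios, led by Cenpf (3.90 against 91.8 CPM) and Top2a (8.98 against 187 CPM), and 15 of 17 cell-cycle genes were at least 4-fold lower in each library. The summed level of 17 cell-cycle genes was 170 CPM in cluster 0 and 1344 in cluster 1. Among the genes seen in 10% or more of the cells of either cluster, the highest ratios in favour of cluster 0 belonged to Rbp2, a retinol-binding protein (33.1 against 7.74 CPM, 4.27-fold, 3.68 to 4.98), a haemoglobin gene listed as Hba-a2 (24.2 against 6.08 CPM, 3.98-fold) and Pvalb, a calcium-binding protein (176 against 54.3 CPM, 3.24-fold). Rbp2 also led in LPS (38.7 against 8.44 CPM), followed by Ephx1, an epoxide hydrolase (19.6 against 5.02 CPM), and Slfn5, with Pvalb next (250.5 against 81.6 CPM). In LPS 8 genes (0.072%) were higher and 211 (1.9%) lower, and the erythroid markers were the higher in cluster 1 (24.2 against 3.78 CPM).

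Against cluster 2 in saline, 95 genes (0.809%) were at least 4-fold higher in cluster 0 and 153 (1.3%) lower. Car3 (86.3 against 13.8 CPM), Mfap5 (a microfibril protein, 16.6 against 3.52 CPM), Sfrp2 (a secreted Wnt modulator, 232 against 54.3 CPM) and Pdpn (podoplanin, 99.0 against 23.5 CPM) were among the highest. In LPS, where the shares were 0.816% higher and 1.26% lower, the highest ratios belonged to the transcription factor Lhx8 (16.6 against 2.26 CPM), Clmp, Dcn and Pdpn, followed by Serpinb2 (57.6 against 11.5 CPM, 4.99-fold, 4.08 to 6.16) and the fibulin Fbln1. The mural genes Rgs5 (2.71 against 93.6 CPM), Kcnj8 (12.1 against 296) and Abcc9 (14.1 against 304) were lower in cluster 0. Against cluster 7 in saline, 499 genes (4.3%) were at least 4-fold higher and 60 (0.517%) lower, and of the genes seen in 10% or more of the cells of either cluster, the highest ratio was 3.66 (Fn3krp), so that the 499 were rare genes in a cluster of 1459846 UMIs. The lowest ratios belonged to Mx1 (0.519 against 47.95 CPM), Ifit3 (1.43 against 103) and Isg15 (18.3 against 530.2) among others, and 15 of 23 tested interferon-response genes were at least 4-fold lower in cluster 0. In LPS 385 genes (3.58%) were higher and 65 (0.604%) lower, 19 of the 25 tested interferon-response genes among them, with Isg15 at 122 against 1692 CPM.

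The cells of cluster 0 were compared with each other at an equal depth of 3000 UMIs, drawn at random from each cell. A total of 6 LPS cells fell short of that depth and were not used. UMIs of the chemokine lists had a median of 3 per saline cell, with a 95th percentile of 10, and a median of 43 per LPS cell, with 5th and 95th percentiles of 24 and 74. The LPS cells above the saline 95th percentile made up 99.9% (99.8% to 100%), and 6 LPS cells were not above it. No separate group of LPS cells without chemokine UMIs was thus seen at this depth, although free RNA of the LPS library adds to every cell. The coefficient of variation was 35.6% in LPS, against 14.9% from counting alone at that mean.

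For NF-kappaB genes the medians were 0 and 3 UMIs, and 68.1% (66.9% to 69.1%) of the LPS cells lay above the saline 95th percentile of 2. Interferon-response UMIs overlapped more, with medians of 8 and 12 and 19.4% of the LPS cells above the saline 95th percentile of 16. Collagen UMIs had medians of 24 and 19 per cell. Of the LPS cells 1.81% lay above the saline 95th percentile and 12.0% below the 5th percentile.

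**Figure D5:**
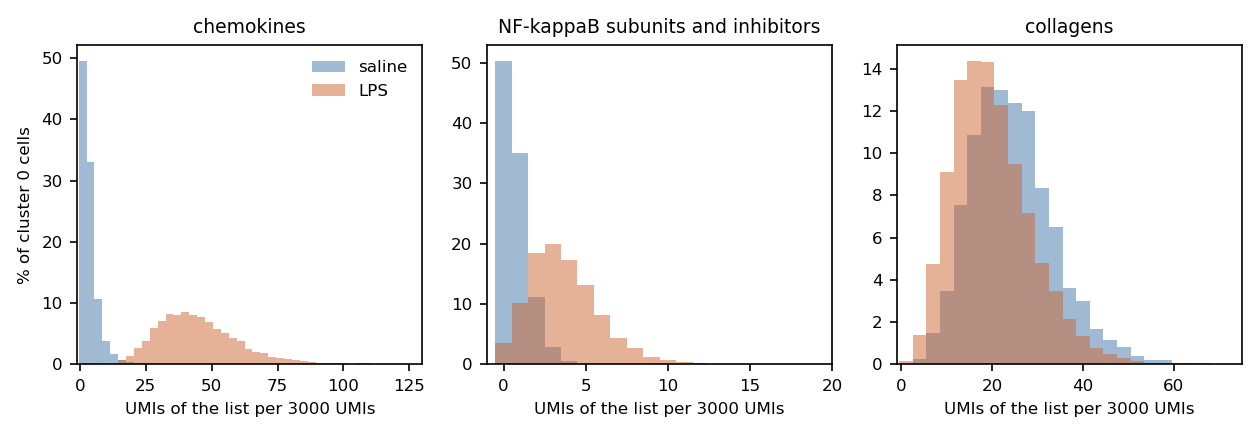
Share of the cluster 0 cells of each library (y axis, %) by the number of UMIs of the chemokine, NF-kappaB and collagen lists per 3000 UMIs (x axis), saline in blue and LPS in orange. The chemokine distributions barely overlap (medians 3 and 43), the NF-kappaB distributions overlap in part and the collagen distributions largely.

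Single genes differed in how unevenly they were spread over cells, given as the variance over the mean of the thinned UMIs, which is near 1 when cells differ by counting alone (median 1.02 over 2966 genes in saline and 1.03 over 2977 in LPS). Slpi, an antiprotease of secretions, had 16.3 in saline and 13.4 in LPS, and was found in 18.4% and 34.2% of the cells. Pla2g2a had 13.7 and 19.5, and in LPS its 10th and 90th percentiles were 1 and 31 UMIs per cell. Mgp, the matrix Gla protein (9.32 and 11.3), and Penk (5.38 and 5.62) were uneven in both libraries. Of the genes higher in LPS, Cxcl6 had 5.16, Serpinb2 3.10, Cxcl10 2.54 and Ccl20 2.51, whereas Ccl3 (0.987), Ccl4 (0.978) and Il1b (1.03) were spread as counting alone would spread them. Birc3 (1.02) lay a little below the LPS median of 1.03, at rank 1891 of 2977, and Cx3cl1 (1.12) above it, at rank 436.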

How the data were processed

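The authors prepared the libraries with the 10X Genomics 3′ v2 kit. The submitters' processing notes name Cell Ranger 2.2.0 and Seurat 2.3.4, and the methods state that the libraries were joined with RunCCA and clustered with FindClusters at a resolution of 0.5; the genome build is not given in the sources used here. The deposited values are raw UMI counts per gene and cell, without normalization, with a table of each cell's cluster and cell type. Cluster 0 was matched to the counts by barcode. No further filter on cells and no doublet caller was applied; an alternative left out the 8% of cells with the most UMIs.

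Counts were summed per cluster and library with pandas 2.3.3, scipy 1.17.1 and numpy 2.4.6 (Python 3.11.15). Genes with 50 or more UMIs over both libraries were tested for size, not significance, by a 2-fold rule. Named were the 15 highest and 15 lowest ratios among genes with a UMI in 10% of the cells of a library, the leading genes against clusters 1, 2 and 7 (4-fold, within a library), and members of gene lists. The members and the lists were chosen with earlier results of these data known. Thinning drew 3000 UMIs per cell without replacement (seed 1). Counts for LPS against saline in cluster 0 were simulated as Poisson draws from the pooled sums, with 200 of 12247 genes changed. Of the 4-fold changes 99.5% passed 2-fold, and of the 2-fold changes, which lie at the cutoff, 49%. The true ratio lay inside 95.4% and 95.3% of the intervals, respectively. Draws and intervals rest on the same Poisson model, so this checks the calculation only. It does not measure how well the intervals cover the spread between cells or cultures. A few members of the gene lists are counted but not reported here by name.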

Additional observations from a re-analysis of the deposited data

Results flagged for a closer look

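Irf5, Slc43a2 and Rgcc differed at least 2-fold in opposite directions between LPS and saline in cluster 0 and in the macrophages of cluster 6, with counting intervals on opposite sides of 1. Irf5, an interferon regulatory factor of myeloid cells, was at 4.52 CPM in saline and 13.9 in LPS in cluster 0 (log2 ratio 1.62), and in macrophages at 96.3 and 38.6 CPM (log2 ratio -1.319, 300 and 96 UMIs). Slc43a2, an amino acid transporter, was at 15.4 and 32.0 CPM in cluster 0 (1.05), and in macrophages at 71.0 and 29.4 CPM (-1.273). Rgcc, a regulator of the cell cycle, was at 13.3 and 3.71 CPM in cluster 0 (-1.84), and in macrophages at 20.5 and 85.3 CPM (2.053). There is 1 library per condition, and the difference between the clusters was not tested.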

How the results depend on the processing

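No paired analysis was possible because there is 1 library per condition. Of 514 log2 ratios of 50 genes under the alternatives, 414 stayed within the counting interval, 95 left it with the same sign and 5 changed sign. The 5 came from keeping only cells with a UMI of a Y-linked gene, chosen after seeing the data, which left 7 saline and 6 LPS cells: Medag and Map2k6 0.88, Col1a1 0.60, Dcn -0.037 and Lum 0.63, with 14 higher and 11 lower of 424 genes. Leaving out barcodes found in both libraries was also chosen after seeing the data. Leaving out cells with 2 or more UMIs of other cell types' markers kept only 294 saline and 1281 LPS cells; 337 genes were higher and 307 lower of 8112 with enough UMIs, and the log2 ratio was 3.67 for Birc3, -2.15 for Gprc5c, -3.66 for Clec3b, 3.21 for Ccl7, 3.15 for Ptgs2 and 3.74 for Tlr2, against 4.61, -2.86, -2.76, 3.85, 3.997 and 3.14 in all cells. The ratios from these 294 saline and 1281 LPS cells have no interval, and those of genes rare in saline rest on few UMIs. Thinning moved Il1b from 6.81 to 7.90, and taking the mean of the cells' own levels moved Mmp13 from 6.07 to 7.11. Higher genes (421) became 1238 with a minimum of 1 UMI, 277 with 500 UMIs, 847 at 1.5-fold and 142 at 4-fold. Lower genes (1115) became 636 with cells thinned to 3000 UMIs, 1863 with a minimum of 10 UMIs, 3370 with 1 UMI, 346 with 500 UMIs, 2417 at 1.5-fold and 178 at 4-fold. With median-of-ratios scaling 488 were higher and 865 lower.

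At 2-fold instead of 4-fold, the genes higher and lower in cluster 0 were 201 and 429 against cluster 1, 489 and 610 against cluster 2 and 919 and 529 against cluster 7 in saline, and 135 and 452, 467 and 551, and 778 and 380 in LPS. At 4-fold the LPS numbers were 8 and 211, 89 and 137, and 385 and 65. Thinned to 1500 and 6000 UMIs, the LPS cells above the saline 95th percentile were 99.7% and 100% (99.985%) for chemokines, 53.2% and 81.1% for NF-kappaB genes and 13.7% and 22.7% for interferon-response genes, and 2.49% at 1500 UMIs for collagens. Depth limits genes with few UMIs, such as Tlr4, and all intervals leave out the difference between cultures.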
